A study of Glycine max with 9 samples.

Results

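Of the 17155 soybean gene IDs with a mean of 5 to 1000 FPKM over 9 root hair libraries, 27 had levels that were lower at each successive age with no overlap between the ages. They are called the descending genes here. FPKM is a count of fragments scaled for transcript length and for the fragments mapped in the library, and the whole table holds 56044 gene IDs. The members were selected from the deposited values of all 9 libraries. The columns were scaled by the median of ratios, and log2(scaled FPKM + 1) was taken. This scaling sets the typical gene, of those above 0 in all 9 libraries, to the same level in every library. A gene was kept when its highest 48h library was below its lowest 24h library and its highest 24h library was below its lowest 12h library. The selection allowed the 150 genes with the largest difference between 12h and 48h, but only 27 met the condition, so none was left out by that limit. The selected share was 0.157% of the genes in that range, and 16 genes (0.0933%) met the mirror condition of being higher at each successive age. Because these same values chose the members, all their levels, differences and order are given as description and were not tested as evidence of a decline.

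The libraries are root hair cells of Glycine max of the genotype that the labels spell willam 82, grown by ultrasound aeroponics, that is, with the roots suspended in a nutrient mist. The 3 groups, titled 12h, 24h and 48h, had ages of 276, 288 and 312 hours after sowing and 3 libraries each. All groups share the genotype, and the labels name no added agent. Whether replicate libraries stem from different plants is not in the labels, so the spread between them may be technical. The first step between groups spans 12 hours and the second spans 24 hours. If sowing was at the same hour for all groups, 24h and 48h fall at the same hour of the day and 12h does not. Age and hour of the day then cannot be told apart in the first step, nor in any difference between 12h and 48h.

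Root hairs are tubular outgrowths of single epidermal cells of the root that lengthen at the tip. They enlarge the surface through which water and mineral nutrients are taken up, and in legumes such as soybean they are where rhizobia enter. The level of a messenger RNA in such cells reflects both its synthesis and its decay, and in a bulk preparation fewer cells of a type and less RNA per cell cannot be told apart. The RefSeq gene table of assembly Glycine_max_v4.0 holds 0 of the 27 IDs and 0 of all deposited IDs. The deposited table gives no names or descriptions. The genes are therefore given by ID, with no name or function, and the labelled cell type was not checked against marker genes.

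Libraries differed within groups before any gene was chosen. Pearson correlations of log2 levels across genes were 0.7759 to 0.8835 among the 12h replicates. They were 0.9244 to 0.952 among the 24h and 0.9655 to 0.9708 among the 48h replicates. On the first principal component, with 47.15% of the variance, 12h replicate 2 and 24h replicates 2 and 3 had the highest scores (123, 58.4 and 81.4). The scores of the other 6 libraries ran from -94.0 to 15.7. The scaling factor of 12h replicate 2 was 0.599, the lowest of the 9, and those of the 48h libraries were 1.18 to 1.24, so scaling raised the former and lowered the latter. Read depth is unknown, since FPKM values do not carry it, and no counting intervals are given.

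The descending genes were moderately expressed and differed widely in the size of the difference between the ages. Their mean level over the 9 libraries ran from 5.07 to 164 FPKM with a median of 24.2 FPKM, against a median of 13.9 FPKM for all 17155 genes. Between 12h and 48h the difference in log2(scaled FPKM + 1) ran from 0.33 to 3.03 with a median of 1.23, whereas the median over all 17155 genes was 0.10. In 5 genes the difference was at least 2 on the log2 scale, in 14 it lay from 1 to under 2, and in 8 it was under 1. The mean 48h level was 11.6% to 76.4% of the mean 12h level, and it was under 50% in 20 of the 27 genes. Summed over the 27 genes, scaled FPKM was 1216, 1893 and 1886 in the 12h libraries, 842, 926 and 735 in the 24h libraries, and 612, 512 and 547 in the 48h libraries. The sum thus was lowest in 12h replicate 1 within its group, and its order by age follows from the choice of genes.

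Glyma.06G077000 had the largest difference, but with uneven values within groups. Its scaled FPKM was 12.7, 78.7 and 31.8 in the 12h libraries, 12.5, 8.14 and 11.7 in the 24h libraries, and 8.01, 6.22 and 0 in the 48h libraries. The log2 difference between 12h and 48h was 3.03 ± 1.25 (SE, n = 3 each). It was the 1 gene of the 27 with a library listed at 0, in 48h replicate 3, and a listed 0 among FPKM values may be an estimate that failed. Without that library the log2 difference was 2.03, below those of the next 4 genes by difference (2.30 to 2.81). Its groups were separated by only 0.024 at the first step and 0.021 at the second on the log2 scale. The separation was therefore far smaller than the spread among the 12h libraries, where replicate 1 lay close to the 24h libraries.

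Glyma.12G030700 was next. It had 37.0, 96.2 and 89.6 scaled FPKM at 12h, 15.1, 25.9 and 16.1 at 24h, and 13.2, 7.66 and 6.01 at 48h. Its mean went from 74.3 ± 32.5 to 19.0 ± 5.95 and 8.95 ± 3.76 scaled FPKM (SD, n = 3 each), so that the 48h mean was 12.1% of the 12h mean. Most of this difference, 63.9% on the log2 scale, lay in the first step.

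The widest separation between any neighbouring groups belonged to Glyma.16G060700. Its scaled FPKM was 202, 257 and 330 at 12h, 81.4, 84.2 and 42.4 at 24h, and 35.5, 36.6 and 37.3 at 48h. The lowest 12h library stood 1.25 above the highest 24h library on the log2 scale, and the 48h libraries were nearly alike. The log2 difference from 12h to 48h was 2.79 ± 0.21 (SE, n = 3 each), of which 69.7% lay in the first step. As deposited, without scaling, its 24h replicate 3 (33.9 FPKM) was below all the 48h libraries (43.6, 45.4 and 44.1 FPKM), so the second step depended on the scaling.

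Glyma.11G038300 and Glyma.04G245000 completed the 5 genes with a difference of at least 2. The first had 34.5, 78.7 and 108 scaled FPKM at 12h, 13.0, 28.9 and 24.8 at 24h, and 9.31, 11.1 and 10.4 at 48h. Glyma.04G245000 had 9.09, 29.5 and 40.4 at 12h, 8.83, 7.64 and 8.76 at 24h, and 4.21, 3.30 and 5.46 at 48h. In both, 12h replicate 1 was far below the other 12h libraries. In Glyma.04G245000 it stood only 0.037 above the highest 24h library on the log2 scale, and the gap of the 24h libraries over the 48h libraries was much wider, at 0.42.

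**Figure D1:**
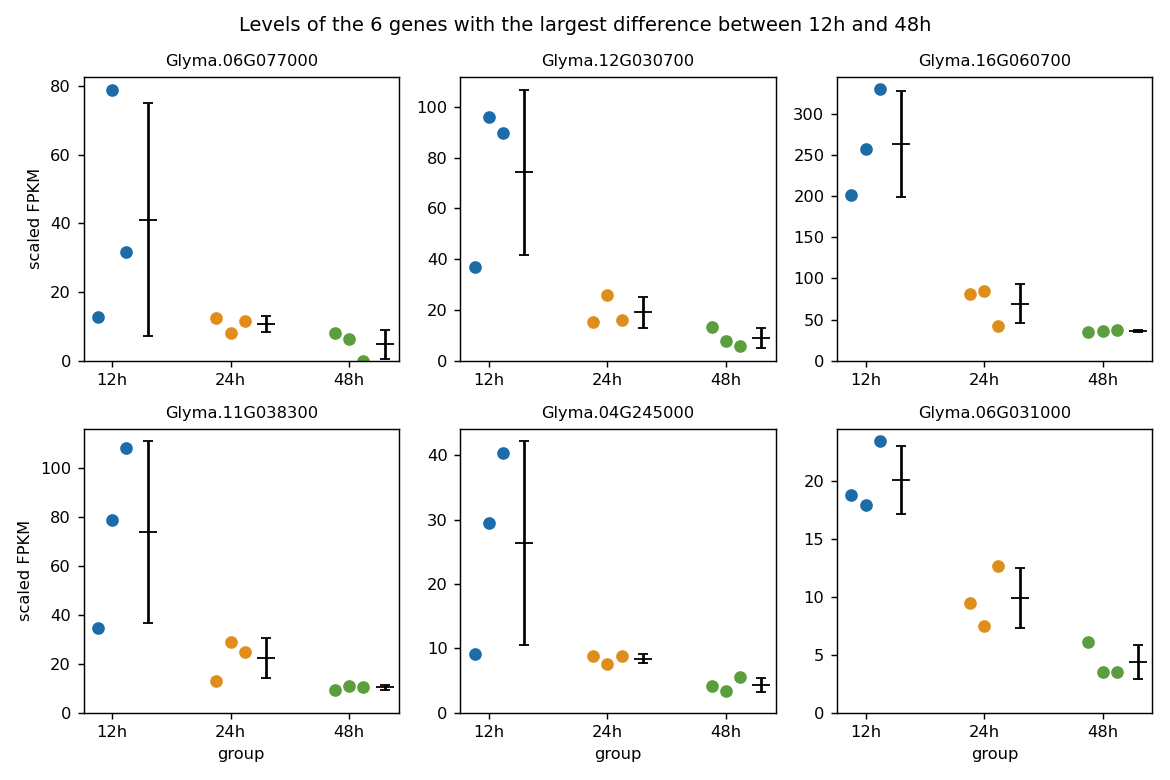
Scaled FPKM (y axis, from 0) of the 6 genes with the largest difference between 12h and 48h, in each of 3 libraries per group (points, replicates 1 to 3 from left to right), with the group mean and SD (bars, n = 3). The 12h libraries spread widely in most panels, whereas the 48h libraries of Glyma.16G060700 sit between 35.5 and 37.3.

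The 14 genes with a difference from 1 to under 2 included both the highest and the lowest mean level of the 27. The first of them by difference, Glyma.06G031000, had 18.8, 17.97 and 23.5 scaled FPKM at 12h, 9.50, 7.51 and 12.6 at 24h, and 6.07, 3.51 and 3.53 at 48h. Its steps were nearly equal, at 0.97 and 1.03 on the log2 scale. Glyma.18G047800 had 25.2, 73.7 and 77.6 at 12h, 21.1, 20.8 and 20.3 at 24h, and 14.7, 11.0 and 15.0 at 48h. Its 24h libraries were almost identical, while 12h replicate 1 was far below the other 12h libraries. Glyma.03G031200, the lowest of the 27 in mean level, had 5.44, 14.3 and 9.36 at 12h, 3.82, 4.64 and 4.58 at 24h, and 3.14, 2.70 and 1.43 at 48h.

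The 2 genes with the highest mean levels were Glyma.13G279200, with 164 FPKM, and Glyma.16G060700, with 117 FPKM. Glyma.13G279200 had 220, 232 and 280 scaled FPKM at 12h, 157, 198 and 107 at 24h, and 103, 84.3 and 96.7 at 48h. In this gene 24h replicate 3 lay just above the highest 48h library, with a gap of 0.055 on the log2 scale. Glyma.04G030900 had 105, 171 and 101 at 12h, 78.7, 72.2 and 61.8 at 24h, and 55.4, 36.8 and 33.5 at 48h. Its 48h mean was 33.3% of its 12h mean, and the steps of 0.78 and 0.77 on the log2 scale were alike.

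After scaling, Glyma.10G045400 had clearly parted groups at both steps. Its values were 34.6, 46.6 and 54.5 scaled FPKM at 12h, 25.0, 27.7 and 25.5 at 24h, and 16.98, 14.8 and 17.9 at 48h. The gaps between neighbouring groups were 0.31 and 0.46 on the log2 scale. As deposited its groups overlapped at both steps. There, 12h replicate 2 (27.9 FPKM) was below 24h replicate 2 (29.6 FPKM), and 24h replicate 3 (20.4 FPKM) was below 48h replicate 3 (21.1 FPKM). Glyma.01G006000 had 71.9, 107 and 118 at 12h, 68.4, 58.3 and 53.9 at 24h, and 50.3, 32.2 and 36.7 at 48h. In both the steps were of similar size, and the first made up 54.4% and 53.0% of the log2 difference.

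In several genes of this class 1 library at 12h stood well above the other libraries of its group, as in the next 4 genes. Glyma.06G131600 had 58.5, 234 and 62.3 scaled FPKM at 12h, 56.2, 51.4 and 52.2 at 24h, and 43.3, 34.5 and 42.6 at 48h, with 12h replicate 2 high and the other 12h libraries close to the 24h level. Glyma.06G215600 had 7.59, 7.76 and 24.4 at 12h, 7.17, 5.27 and 4.85 at 24h, and 4.41, 3.10 and 4.44 at 48h, with 12h replicate 3 high. Glyma.01G090400 had 16.3, 29.4 and 13.6 at 12h, 11.8, 12.6 and 12.2 at 24h, and 9.22, 8.03 and 8.93 at 48h, again with 12h replicate 2 high. Glyma.18G230800, with 12h replicate 3 high, also had the most front-loaded profile of the 27. Its values were 24.8, 24.1 and 45.1 scaled FPKM at 12h, 16.4, 14.9 and 15.0 at 24h, and 13.2, 12.6 and 13.2 at 48h, and 80.1% of its log2 difference lay in the first step. These 4 were picked out after their values had been seen.

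The remaining 3 genes of the class had smaller differences of 1.17, 1.16 and 1.07 on the log2 scale. Glyma.14G073200 went from 102 ± 21.4 to 61.5 ± 12.8 and 44.3 ± 7.46, Glyma.08G067600 from 72.6 ± 19.8 to 41.3 ± 9.79 and 31.3 ± 2.93, and Glyma.16G153700 from 39.6 ± 11.0 to 26.2 ± 1.68 and 17.9 ± 1.37 scaled FPKM (SD, n = 3 each).

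The 8 genes with a difference under 1 were closer together, and several had tight groups. Glyma.01G108000 had 28.1, 26.1 and 25.2 scaled FPKM at 12h, 17.97, 20.7 and 18.5 at 24h, and 15.0, 14.8 and 15.0 at 48h. After scaling, its log2 difference between 12h and 48h was 0.79 ± 0.045 (SE, n = 3 each), the smallest SE among the 27 genes. As deposited, its 12h replicate 2 (15.7 FPKM) was below all the 48h libraries (18.4, 18.3 and 17.7 FPKM). The log2 difference of the deposited values was 0.34, so both its size and the tight 12h group depended on the scaling. Glyma.12G205900 had 8.62, 9.26 and 11.4 at 12h, 8.23, 7.62 and 8.07 at 24h, and 3.96, 5.54 and 6.38 at 48h. Only 32.4% of its difference lay in the first step, the lowest share of the 27.

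The means of Glyma.01G185200, in the order of the ages, were 16.8 ± 6.76, 9.96 ± 0.863 and 7.74 ± 0.284 scaled FPKM (SD, n = 3 each). For Glyma.13G228100 the means were 31.8 ± 5.91, 22.9 ± 1.97 and 18.04 ± 0.171, and for Glyma.19G210300 they were 10.04 ± 1.41, 7.71 ± 0.322 and 6.58 ± 0.267 (SD, n = 3 each). Glyma.02G274600 had 74.9, 66.0 and 90.5 at 12h, 63.3, 62.3 and 62.6 at 24h, and 59.4, 53.2 and 56.2 at 48h. Its log2 difference of 0.44 became -0.03 in the values as deposited, where 12h replicate 2 had 39.5 FPKM and the 48h libraries had 73.0, 66.0 and 66.5 FPKM.

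The separation condition was met narrowly by some genes. Glyma.03G152300 had 6.78, 7.63 and 8.15 scaled FPKM at 12h, 6.18, 6.58 and 6.78 at 24h, and 5.81, 5.60 and 5.83 at 48h, with a smallest gap of 0.00042 on the log2 scale. Glyma.04G052300 had 6.76, 7.40 and 11.1 at 12h, 6.72, 6.03 and 5.84 at 24h, and 5.13, 5.38 and 5.26 at 48h, with a smallest gap of 0.0079. Just outside, Glyma.18G182000 had 11.5, 12.3 and 29.6 at 12h, 11.1, 11.5 and 11.5 at 24h, and 9.05, 9.33 and 8.36 at 48h, and a gap of -0.00021, which means a slight overlap. Glyma.14G023500 missed the condition with a gap of -0.0043. At the lower limit of level, Glyma.17G149400 had a smallest gap of 0.12 but a mean of 4.82 FPKM. In all, 13 further genes met the separation with a mean under 5 FPKM, and 0 did so with a mean over 1000 FPKM.

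**Figure D2:**
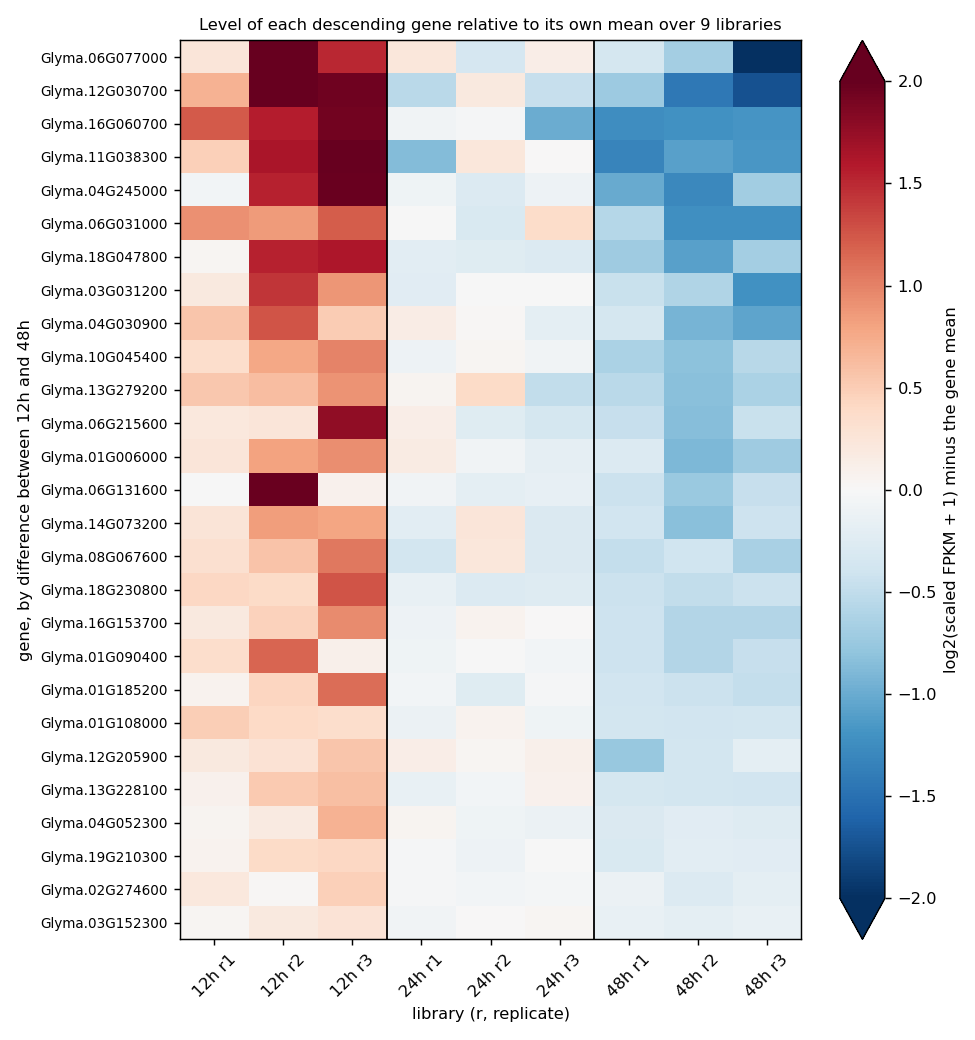
Level of each of the 27 descending genes (rows, by the difference between 12h and 48h) in each library (columns), as log2(scaled FPKM + 1) minus the mean of the gene over the 9 libraries. Black lines part the groups. Within 12h, replicate 3 is the highest library in 19 genes and replicate 1 the lowest in 21.

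The libraries did not contribute alike. At 12h, replicate 3 was the highest in 19 of the 27 genes, replicate 2 in 7 and replicate 1 in 1. Replicate 1 was the lowest 12h library in 21 genes, and so it set the distance to the 24h group in most of them. At 24h the highest library was replicate 1 or 2 in 11 genes each and replicate 3 in 5, and at 48h it was replicate 1 in 15, replicate 2 in 4 and replicate 3 in 8. On the log2 scale, the SD of the descending genes had medians of 0.38 (12h), 0.12 (24h) and 0.13 (48h), against 0.55, 0.35 and 0.16 for the 17155 genes (n = 3 each). The condition favours genes with a small spread, so the lower values are a part of the selection. In 17 of the 27 genes the range among the 12h libraries still exceeded the difference between the 12h and 24h means.

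The larger part of the difference lay between 12h and 24h in most of the 27 genes. The selection shapes this split, because the widely spread 12h libraries all had to lie above the 24h libraries. How much of the split this accounts for was not tested. Over all 17155 genes the median difference was -0.036 from 12h to 24h and 0.17 from 24h to 48h on the log2 scale. The first step was the larger one in 24 of 27 genes and the second in 3, which were Glyma.06G077000, Glyma.06G031000 and Glyma.12G205900. The median step was 0.75 from 12h to 24h and 0.53 from 24h to 48h on the log2 scale, and the first step made up a median of 60.8% of the whole (range 32.4% to 80.1%). Since the first step covers 12 hours and the second 24 hours, the median difference per hour was 0.062 and 0.022 in that order. The first step was the steeper in 26 of 27 genes. The larger and the steeper step were not counted over all 17155 genes. Whether this split is particular to the 27 is therefore unknown. Across the 27 genes the sizes of the steps went together (Spearman rho = 0.75, n = 27 genes, given as a description because both steps share the 24h libraries). At 24h, 11 genes were already under 50% of their 12h mean.

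**Figure D3:**
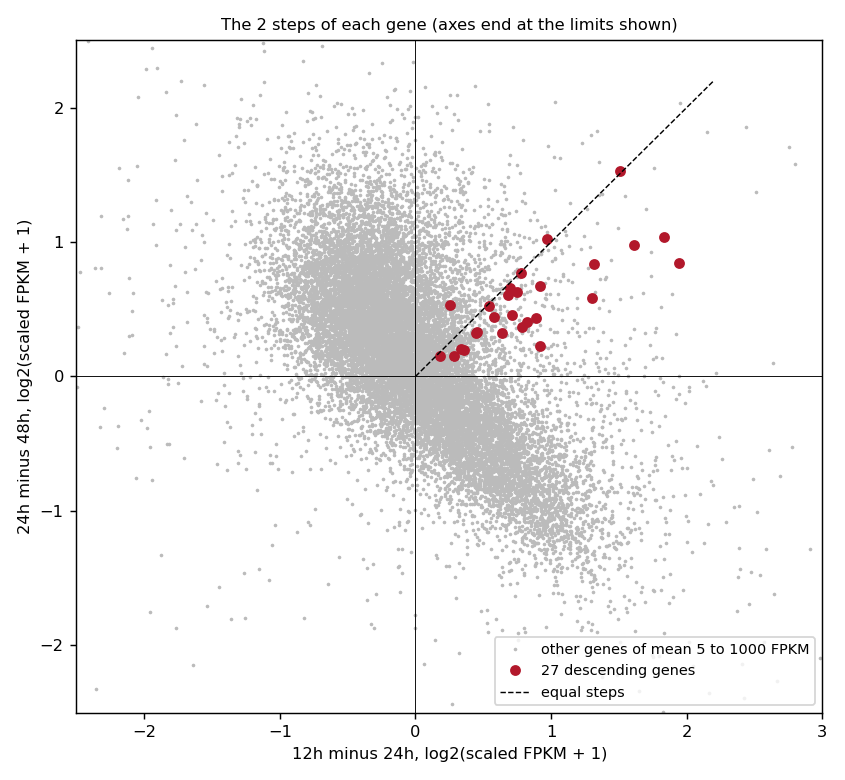
Difference between the 12h and 24h means (x axis) against that between the 24h and 48h means (y axis), in log2(scaled FPKM + 1), for the 27 descending genes (red) and the other genes with a mean of 5 to 1000 FPKM (grey). The dashed line marks equal steps, and 84 genes lie outside the axes. Most red points, 24 of 27, lie below the line.

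Each condition alone was met by far more genes than both together. Of the 17155 genes, 1455 (8.48%) were lower at 24h than at 12h without overlap, and 5337 (31.1%) were lower at 48h than at 24h. The comparisons share the 24h libraries, and both conditions held for the 27. Between 12h and 48h, 1807 genes (10.5%) were lower without overlap. In 1044 of these (57.8%) the 24h mean lay between the other means, in 476 (26.3%) it was at or above the 12h mean, and in 287 (15.9%) at or below the 48h mean. Of the 1044 genes with an intermediate 24h mean, 560 had 24h libraries all above the 48h libraries, but only 121 had 12h libraries all above the 24h libraries.

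**Figure D4:**
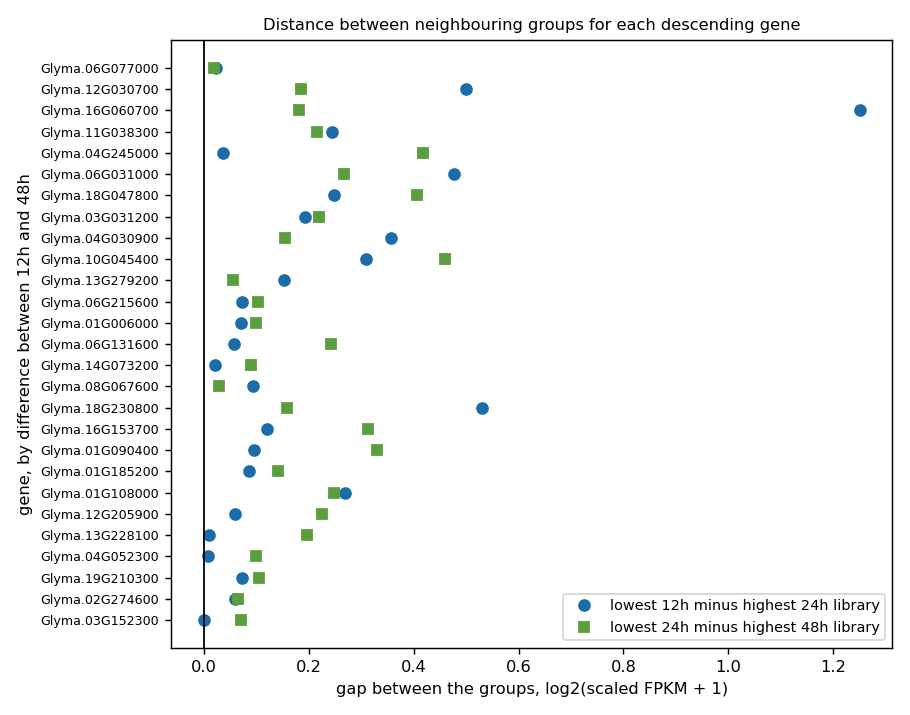
Distance between neighbouring groups for each descending gene on the log2(scaled FPKM + 1) scale, as the lowest 12h minus the highest 24h library (circles) and the lowest 24h minus the highest 48h library (squares). All points lie to the right of 0 because the genes were chosen that way. The first gap is the smaller in 17 genes and the second in 10.

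In a fit over all genes, none of the 27 passed. Of 31518 genes tested with limma's moderated test on log2(scaled FPKM + 1), 0 (0%) were lower at 48h than at 12h at an adjusted p under 0.05, with 1371 lower at an unadjusted p under 0.05. Of the descending genes 0 passed, and 25 had an unadjusted p under 0.05. Nothing is read from the members' counts in any of these contrasts, since the selection used all of them. The smallest adjusted p was that of Glyma.16G060700 (limma adjusted p = 0.0658). For 24h against 12h, 2 genes (0.00635%) were lower and 0 of the 27 passed. At an unadjusted p under 0.05, 3342 of all genes and 15 of the 27 were lower. For 48h against 24h, 0 genes (0%) were lower at the adjusted threshold and 1553 at the unadjusted one, and 0 and 7 of the 27 were.

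Which genes qualified depended on the scaling. In the values as deposited, 4 genes met the condition, and 3 of them were among the 27. These were Glyma.11G038300, Glyma.04G245000 and Glyma.06G031000, which also qualified in all of the other 15 settings tried. Glyma.06G031000 had 21.7, 10.8 and 22.7 FPKM as deposited at 12h, 10.5, 8.01 and 10.1 at 24h, and 7.46, 4.36 and 4.17 at 48h, so 12h replicate 2 was then barely above the 24h libraries. Of the 27 genes, 18 lost the separation of 12h from 24h as deposited and 24 lost that of 24h from 48h. The separations as deposited were not counted step by step over all 17155 genes. Whether such losses are particular to the 27 is therefore unknown. With quantile normalization 24 genes qualified, 16 of them among the 27. The median difference between 12h and 48h over the 27 genes was 1.23 with scaling, 0.76 as deposited and 0.87 with quantile normalization.

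The number of genes also rested on single libraries, since fewer libraries are easier to separate. Without 12h replicate 1, 219 genes met the condition, among them 26 of the 27. It was met by 50 and 64 genes without 12h replicates 2 and 3, by 57, 95 and 74 without 24h replicates 1, 2 and 3, and by 50, 38 and 29 without 48h replicates 1, 2 and 3. Without 12h replicate 2 and 24h replicates 2 and 3 together, the libraries with the highest scores on the first principal component, 588 genes met it, 25 of the 27 among them. This last setting was chosen after seeing the data and leaves 1 library at 24h. The median difference over the 27 genes from 12h to 48h was then 1.21 and was 1.14 to 1.42 when any 1 library was left out.

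Position in the genome was not used in the selection. Soybean IDs carry the chromosome number and are numbered along the chromosome, and by these IDs the 27 genes lay on 14 of the 20 chromosomes. Chromosomes 1 and 6 held 4 each, of 733 and 955 genes with a mean of 5 to 1000 FPKM. Chromosome 4 held 3, of 767 such genes. None of the genes stood next to another in ID order (0 of 54 neighbours), and the closest pair, Glyma.01G090400 and Glyma.01G108000, was 176 IDs apart. With only 0.157% of genes in that range selected, nothing is read from the lack of adjacent members. Of the 54 directly neighbouring IDs, 22 had a mean of 5 to 1000 FPKM. The median difference between 12h and 48h of these 22 was 0.34 on the log2 scale, against 0.10 for all 17155 genes, and 7 (31.8%) were lower at 48h without overlap, against 10.5% of all. This is a description of 22 genes, with no test.

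Of these 22 neighbours, Glyma.16G060800, Glyma.12G030600 and Glyma.06G031100 had the largest differences between 12h and 48h. On the other side of Glyma.12G030700 and Glyma.06G031000, Glyma.12G030800 and Glyma.06G030900 had log2 differences of -0.20 and -0.04. Glyma.16G060800, the ID after Glyma.16G060700, had the highest mean level of the 22. It had 296, 792 and 608 scaled FPKM at 12h, 395, 426 and 161 at 24h, and 71.1, 78.1 and 124 at 48h, a log2 difference of 2.55 from 12h to 48h. Its 12h replicate 1 lay below 24h replicates 1 and 2, so it did not meet the condition. Glyma.12G030600, the ID before Glyma.12G030700, had 99.9, 145 and 178 at 12h, 64.9, 98.3 and 102 at 24h, and 61.9, 32.0 and 41.6 at 48h. In this gene 24h replicate 3 was above 12h replicate 1 by a small margin. Glyma.06G031100, next to Glyma.06G031000, had 7.95, 10.7 and 11.6 at 12h, 6.15, 4.75 and 1.91 at 24h, and 4.11, 2.03 and 2.64 at 48h. Its 12h libraries were all above its 24h libraries, whereas the 24h and 48h libraries overlapped. Where adjacent genes are near-identical copies or overlap, the counting of fragments may be shared between them, and their separate values are uncertain. Whether that holds for these pairs was not tested.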

How the data were processed

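Per the labels' protocols, libraries were made with a TruSeq RNA-seq v2 kit. The deposited values are FPKM in 1 table with a column per library, none pooled, and the submitters' processing notes name TopHat2 2.1.0 with Cufflinks 2.2.1. For the build and the gene annotation, the sources used here name none. Tissue culture appears in the deposited table's name, but root hair cells in the labels, which were followed. Whole reads could not be recovered: over the 36 pairs of libraries, 0.899% to 3.09% of genes under 0.2 FPKM in both were within 1% of the commonest ratio.

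Scaling factors were medians of ratios over the 34672 genes above 0 in all 9 libraries, and a pseudocount of 1 was added before taking log2. Moderated tests in limma 3.58.1 (R 4.3.3) used a variance trend on mean level (prior of 3.493 degrees of freedom) and all 9 libraries. They covered the 31518 genes that reached 1 FPKM in 3 or more libraries, with p-values adjusted by Benjamini-Hochberg. The fit was also run on simulated data, but the outcome is not given here. Nothing is read from that run, including how the fit handles the unequal spread of the groups. Fold differences on this scale understate the change of low genes.

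The members, settings and comparisons were chosen with earlier results of these data known. The written rule for named genes limited IDs without names to the 2 with the largest difference. All 27 members are named because the selection fixes them, a choice made after their values were seen, as was the choice of neighbours described. Planned lists by gene description and promoter motifs were not used, since no ID could be paired with a description. Alternatives were other scalings, pseudocounts, level ranges and filters, fits of 6 libraries, a replicate block and leaving out each library.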

Additional observations from a re-analysis of the deposited data

How the results depend on the processing

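As deposited, 4 genes met the separation condition, 3 of the 27 were among them and the median difference of the 27 was 0.7583 on the log2 scale; with quantile normalization 16 of the 27 were kept. Leaving out 1 library gave 29 to 219 qualifying genes, 17 to 27 of the 27 among the 150 with the largest differences (17 without 12h replicate 1, where the limit of 150 applied), and a median difference of 1.136 to 1.422. Without 12h replicate 2, 24h replicate 2 and 24h replicate 3 together, chosen after seeing the data, 588 genes qualified and 15 of the 27 were among those 150. Pseudocounts of 0.25 and 0.1 and the other level ranges kept all 27. Of 378 differences of single genes over 14 settings, 376 kept their sign. By selection, every 12h library of a member lay above every library of the oldest group. Another pseudocount or fewer libraries could therefore hardly reverse a sign, and those settings do not test it. The values as deposited and quantile normalization could. As deposited, the differences of Glyma.02G274600 and Glyma.03G152300 were -0.03207 and -0.07615, and no other sign was reversed.

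In limma's fit, the genes lower at 24h than 12h numbered 2, and 0 with no filter or with the replicate block; leaving out 1 library gave 0 to 2817, the highest without 12h replicate 2 (8.98% of the genes tested), when 4 of the 27 passed. The genes lower at 48h than 24h numbered 0, also when any 1 library was left out (0 to 0), but 1873 (5.94%) in the fit of only the 6 libraries compared, with 2 of the 27. The genes lower at 48h than 12h numbered 0, then 1 with quantile normalization and 2 with only the 6 libraries compared. Leaving out 1 library gave 0 to 5 such genes, with 0 to 2 of the 27 among them. Without 12h replicate 1, 2 of the 27 passed, beside 4 of 31171 genes tested (0.0128%). Without 24h replicate 2, 1 of the 27 passed, beside 5 of 31240 genes tested (0.016%). The selection used all of these contrasts, so nothing is read from the members' counts here. The replicate block left 0 of the 27 called. The labels do not say what the replicate number marks, and correlations of same-numbered deviations ran from -0.068 to 0.372, so the numbers were not taken to pair the libraries.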
